A study of Oryza sativa with 2 samples.

Results

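Terpene synthases outside the diterpenoid gene clusters of rice were followed in leaves of the *wlp2s* mutant and of wild-type at 32 °C. Of the 26715 loci in the deposited expression table, 8 listed loci make up this set, and each of the 8 had a row. They were listed with earlier results of the same data in view, as terpene synthase loci that lie apart from the diterpenoid clusters of chromosomes 2 and 4. The levels of the 2 libraries are therefore given as a description, with no test. Both genotypes are *japonica* rice: wild-type cv. Zhonghua11, and a mutant from an EMS-induced population of that cultivar, which per the column headers of the expression table carries the *wlp2s* allele of *WLP2*. The sample title gives only White Leaf and Panicle 2, and a second deposited table heads the same values *wlp1*, so the allele rests on the headers of a single table. Mutants made with EMS can carry further base changes elsewhere in the genome. *WLP2* encodes a fructokinase-like protein of the plastid RNA polymerase complex. Seedlings were raised on 1/2 MS medium in a growth chamber with 12 h of light and 12 h of dark. Each genotype is represented by 1 leaf library, so the genotype, the plants and the library cannot be told apart and no difference has a replicate check. In leaf RNA, fewer cells of a type and less RNA per cell cannot be told apart either.

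Terpene synthases convert prenyl diphosphates into the carbon skeletons of terpenes. In plants, monoterpenes are mostly made in plastids from geranyl diphosphate, and sesquiterpenes mostly in the cytosol from farnesyl diphosphate. Many of these products are volatile, are released from leaves after attack by insects or pathogens, and genes of their synthases often respond to jasmonate. The loci are shown under their locus IDs, because the deposited file describes them by Arabidopsis matches and does not state which compound each rice enzyme makes. Among the 8 loci, 3 were described as terpene synthase 21, which in Arabidopsis makes the sesquiterpene caryophyllene, and 1 as terpene synthase 14, which in Arabidopsis makes the monoterpene alcohol linalool. The other 4 were described only as members of the terpenoid cyclase superfamily. All 8 carried the gene ontology (GO) term for terpene synthase activity, 2 carried the term plastid, and 1, LOC_Os08g04500, was placed in the sesquiterpenoid and triterpenoid pathway. The annotation thus places the set among terpene synthases, and the split into mono- and sesquiterpene enzymes was not tested. The 8 loci have 11 transcript models of 1714 to 2651 bases.

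The wild-type library held 9080323 counts in all and the *wlp2s* library 9327778. Levels are given in RPKM (reads scaled to transcript length and to the library total, models of a locus added up), and the libraries are compared as the difference of log2(RPKM + 1), *wlp2s* minus wild-type. A difference of at least 1 in size at a locus with an RPKM of at least 1 in either library was taken as past the size rule. This was met by 333 of 18639 loci on the higher side (1.79%) and by 189 on the lower side (1.01%), and the median difference was 0.00. Folds are ratios of depth-scaled counts, and the exact 95% binomial interval behind each reflects counting error alone. The level of *WLP2* (LOC_Os01g63220) was 6.61 RPKM in wild-type and 9.10 RPKM in *wlp2s*, 1.38-fold higher in *wlp2s* (1.09 to 1.74). A base change need not alter the level of a transcript, and the genotype labels were not tested with this level. Of 23 loci annotated as Rubisco small subunit or antenna proteins, markers of leaf mesophyll, 21 passed the filter. Their summed level was 13135 RPKM in wild-type against 10949 RPKM in *wlp2s*, and 0 of the 23 were at 0 in both. By the size rule 3 of the 21 were higher and 1 was lower, against 1.79% and 1.01% of all loci. Differences ran from -1.32 to 1.82, with a median of -0.11. The 18 phloem loci summed to 277 and 268 RPKM, the 3 epidermal wax loci to 19.3 and 20.5 RPKM, and the 4 root hair loci to 0.335 and 1.04 RPKM. The seed list summed to 1373 and 1192 RPKM over 50 loci, but its wording also covers lipid transfer proteins.

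The set did not move in a single direction. LOC_Os08g04500 held nearly all of its reads and was lower in the *wlp2s* library, LOC_Os03g22634 was lower to a like degree, and LOC_Os04g27790 was nearly absent there. LOC_Os08g07100 and LOC_Os02g02930 were higher. LOC_Os04g27190 was slightly lower in *wlp2s*. LOC_Os04g27340, which appears to share reads with it, had an interval that included equal levels. LOC_Os04g27670 was hardly detected. Of the 8 loci, 7 passed the filter on low values, and 1 was higher and 1 lower by the size rule, so the share past it says little in a set of this size that was chosen from this contrast.

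**Figure D1:**
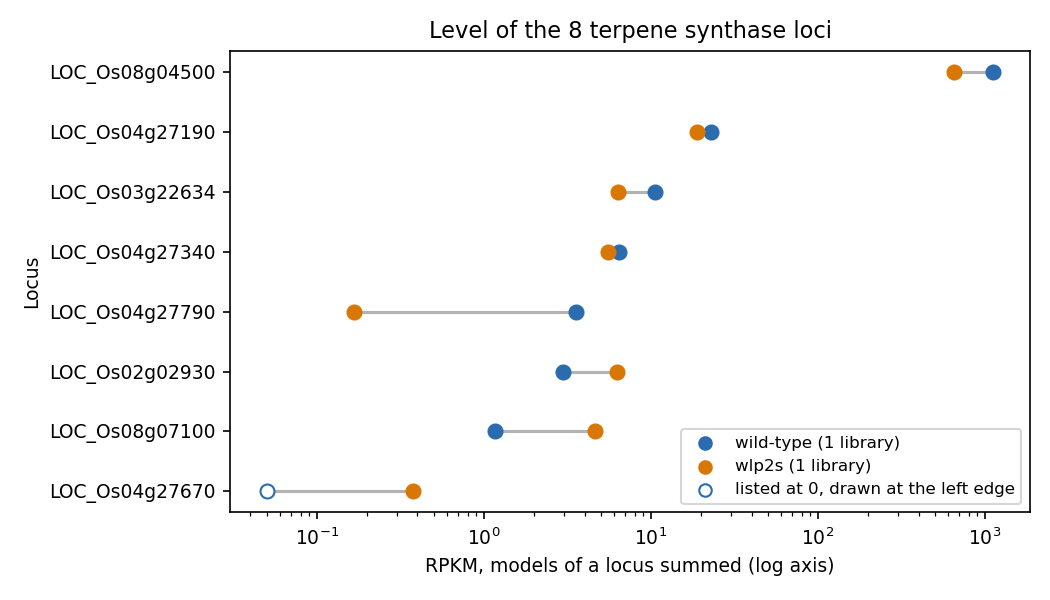
Level in RPKM (log axis) of each of the 8 loci in the wild-type library (blue) and the *wlp2s* library (orange), 1 library each. LOC_Os08g04500 stands at 1122 and 651 RPKM, while none of the other 7 loci exceeds 22.8 RPKM in either library.

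LOC_Os08g04500, on chromosome 8, is described by the caryophyllene-forming terpene synthase 21 of Arabidopsis. Its level was 1122 RPKM in wild-type (exact Poisson interval 1106 to 1137) and 651 RPKM in the *wlp2s* library (639 to 662). The 20732 counts in wild-type against 12357 counts in *wlp2s* gave a level 1.72-fold lower in *wlp2s* (interval 1.69 to 1.76), a difference of -0.78 that stayed short of the size rule. The locus ranked 34th by RPKM among all loci in wild-type and 80th in the *wlp2s* library. It took 0.228% of all counts in wild-type and 0.132% in the *wlp2s* library. Among the 122 loci that reached 500 RPKM in either library, 1 had a lower difference than LOC_Os08g04500 and 0 passed the size rule in either direction. The limit of 500 was chosen after these values were seen. The summed counts of the mesophyll marker loci were 0.832 of wild-type (0.827 to 0.838), with 14 of the 21 loci below 0 and 7 above. The ratio at LOC_Os08g04500 was 0.580 of wild-type (0.567 to 0.593). Fewer mesophyll cells and less marker RNA per cell cannot be told apart, so the markers do not give a share of cells. Their part in the difference at LOC_Os08g04500 was not tested.

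Both transcript models of LOC_Os08g04500 were lower to nearly the same degree. The model of 1949 bases was at 575 RPKM in wild-type against 332 RPKM in *wlp2s*, 1.73-fold lower. The model of 2127 bases was at 546 and 319 RPKM, 1.71-fold lower. Reads that fit both models were divided between them, so the models are not separate measurements. The counts of the locus were whole numbers in both libraries, as were those of LOC_Os03g22634 and LOC_Os04g27790. Reads of the other 5 loci were in part divided with other loci.

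LOC_Os03g22634, on chromosome 3, carries the same description, and both loci share the GO term response to biotic stimulus, which the other 6 lack. It was at 10.6 RPKM in wild-type (9.34 to 12.1) against 6.33 RPKM in the *wlp2s* library (5.35 to 7.44). With 242 and 148 counts it was 1.68-fold lower in *wlp2s* (1.36 to 2.08), a difference of -0.67. Its fold was close to that of LOC_Os08g04500, at a far lower level. The next listed terpene synthase locus on chromosome 3, LOC_Os03g22620, had 11 counts in wild-type and 9.5 in the *wlp2s* library, and a difference was not detectable there at this depth.

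LOC_Os08g07100, on chromosome 8 and described only as a terpenoid cyclase with the term plastid, was the member that was higher by the size rule. It was at 1.16 RPKM in wild-type (0.685 to 1.83) against 4.60 RPKM in the *wlp2s* library (3.63 to 5.81), from 18 and 73.5 counts. The level was 3.98-fold higher in *wlp2s* (2.37 to 7.12), with a difference of 1.38, the 133rd highest of the loci examined. With 5 RPKM added in place of 1 the difference was 0.64, under the size rule. The adjacent ID LOC_Os08g07080, which is not among the 8 loci, has the same description and was at 3.89 RPKM in wild-type against 14.9 RPKM in *wlp2s*, 3.83-fold higher (2.94 to 5.07). Counts of LOC_Os08g07100 and LOC_Os08g07080 added up to whole numbers in both libraries, 87 in wild-type and 345 in the *wlp2s* library, so they may share reads and are not separate results. Together they were 3.86-fold higher in *wlp2s* (3.04 to 4.94).

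LOC_Os02g02930, on chromosome 2 and described by the linalool-forming terpene synthase 14 of Arabidopsis, was at 2.97 RPKM in wild-type (2.26 to 3.84) against 6.26 RPKM in the *wlp2s* library (5.24 to 7.47). Its 59 and 127.5 counts gave a level 2.10-fold higher in *wlp2s* (1.54 to 2.93). The difference of 0.87 stayed under the size rule, because the added 1 RPKM compresses differences at low levels, and with 0.1 RPKM added instead it was 1.05. The only other locus described by terpene synthase 14, LOC_Os10g34790, had 4 and 4.5 counts. The counts of both added up to whole numbers (63 and 132), and together they were 2.04-fold higher. A remainder of 0.5 can pair with many loci, so a shared read is possible and was not shown.

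**Figure D2:**
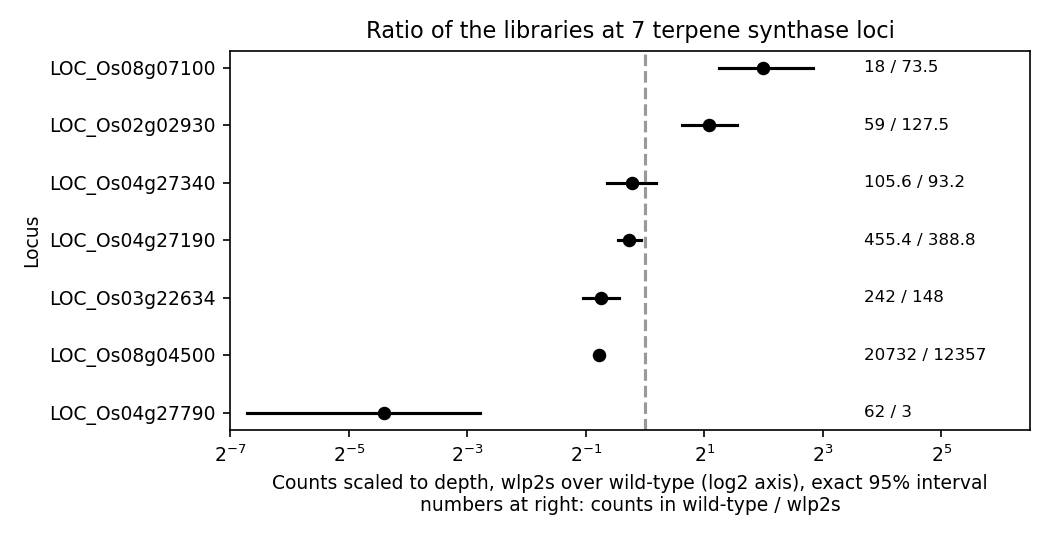
Ratio of depth-scaled counts, *wlp2s* over wild-type (log2 axis), with exact 95% binomial intervals for the 7 loci with counts above 0 in wild-type, and counts in wild-type and *wlp2s* at the right. LOC_Os08g07100 and LOC_Os02g02930 lie wholly above 1, LOC_Os04g27340 spans 1, and the other 4 intervals lie below 1.

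The remaining 4 loci lie in a single run of IDs on chromosome 4, from LOC_Os04g27190 to LOC_Os04g27790. The table lists 11 loci in that run, and 8 of them match the terpene synthase wording. Levels differed widely along the run. LOC_Os04g27190 and LOC_Os04g27340 at its start were expressed in both libraries, and LOC_Os04g27790 at its end in wild-type. The 4 terpene synthase loci of the run that are not among the 8 had at most 1 count in either library.

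LOC_Os04g27190 has 3 transcript models and was at 22.8 RPKM in wild-type (20.8 to 25.0) against 19.0 RPKM in the *wlp2s* library (17.1 to 21.0), the most expressed of the set after LOC_Os08g04500. It was 1.20-fold lower in *wlp2s* (1.05 to 1.38), with a difference of -0.26, and the differences of its models ran from -0.25 to -0.21. LOC_Os04g27340 was at 6.46 RPKM in wild-type (5.31 to 7.84) against 5.55 RPKM in the *wlp2s* library (4.47 to 6.79). Its ratio of 0.859 of wild-type had an interval of 0.639 to 1.14, which includes equal levels. The fractional counts of LOC_Os04g27190 and LOC_Os04g27340 added up to 561 in wild-type and 482 in the *wlp2s* library, both whole. They therefore appear to share reads, and their close ratios are not independent. Added up, they were 1.20-fold lower (1.06 to 1.35).

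LOC_Os04g27790, with the term plastid, had 62 counts in wild-type and 3 in the *wlp2s* library, or 3.55 RPKM (2.72 to 4.55) and 0.167 RPKM (0.0345 to 0.489). It was 21.2-fold lower in *wlp2s*, and the 3 counts leave this ratio between 6.94 and 106. The difference of -1.96 was the 27th lowest of the loci examined, and this was the member that was lower by the size rule. With 5 RPKM added in place of 1 the difference was -0.73. Its counts were whole in both libraries. LOC_Os04g27670 was the opposite case, at 0 counts in wild-type against 7.5 counts in *wlp2s* (0.374 RPKM), where the exact interval of the ratio starts at 1.66-fold higher in *wlp2s*. The intervals of its levels overlap, 0 to 0.189 RPKM in wild-type against 0.172 to 0.787 RPKM in *wlp2s*. It did not pass the filter on low values. With LOC_Os04g27720, which has the same description, its counts added up to 0 and 8.

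**Figure D3:**
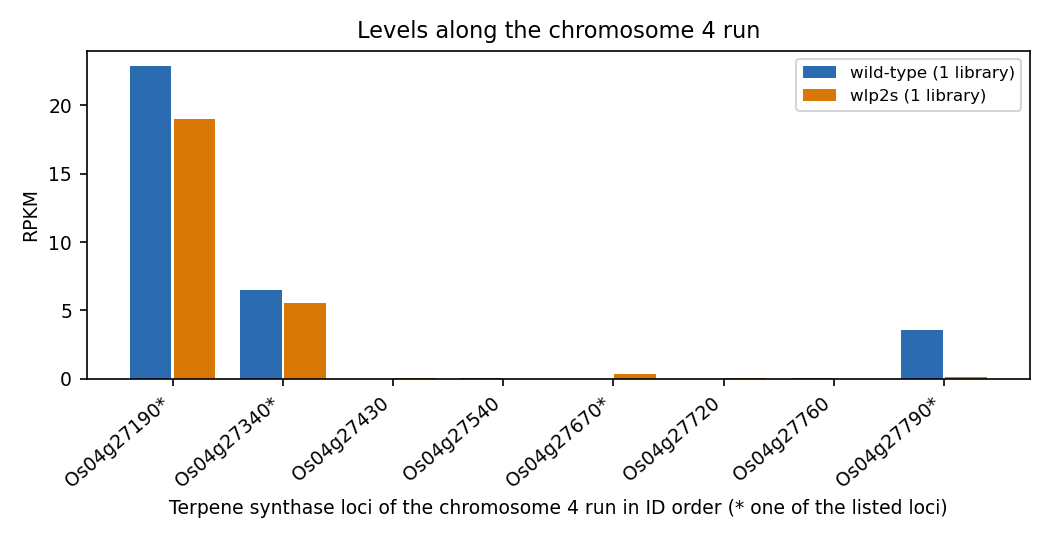
RPKM of the 8 terpene synthase loci in the chromosome 4 run, in order of their IDs, in wild-type (blue) and *wlp2s* (orange), 1 library each; stars mark the loci of the set. Signal sits at LOC_Os04g27190 and LOC_Os04g27340 in both libraries, and at LOC_Os04g27790 at 3.55 RPKM in wild-type against 0.167 RPKM in *wlp2s*.

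Flanking loci outside the terpene synthase list were not past the size rule in these libraries, whereas LOC_Os08g07080, a terpene synthase locus next to LOC_Os08g07100, was (difference 1.70). For each member the 5 listed loci on either side were taken in ID order, which gave 51 loci that do not match the terpene synthase wording. Of the 51, 36 passed the filter and 0 were past the size rule in either direction, where 2.80% of all loci were, which is about 1 of 36 loci, so the count says little about the members. Their differences ran from -0.51 to 0.65. Around LOC_Os08g04500 the range was -0.25 to 0.34, and around LOC_Os08g07100 it was -0.32 to 0.09. Around LOC_Os04g27790 it was -0.35 to 0.34.

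The order of the levels changed between the libraries. In wild-type it ran from LOC_Os08g04500 through LOC_Os04g27190, LOC_Os03g22634, LOC_Os04g27340, LOC_Os04g27790, LOC_Os02g02930 and LOC_Os08g07100 to LOC_Os04g27670, and by counting error LOC_Os04g27790 and LOC_Os02g02930 could not be told apart. In the *wlp2s* library, LOC_Os03g22634, LOC_Os02g02930 and LOC_Os04g27340 followed LOC_Os04g27190 with overlapping intervals between 4.47 and 7.47 RPKM, and LOC_Os08g07100 overlapped with them. LOC_Os04g27790 moved to the end, with an interval of 0.0345 to 0.489 RPKM that overlapped with that of LOC_Os04g27670 (0.172 to 0.787 RPKM). By distance in the pair of log2(RPKM + 1) values, the locus of the terpene synthase list nearest to LOC_Os03g22634 was LOC_Os04g52230 (distance 0.25), and the nearest to LOC_Os04g27340 was LOC_Os03g22634 (0.66). The nearest to LOC_Os02g02930 was LOC_Os11g28530 (0.84), and LOC_Os08g04500 was 7.49 from the closest other locus, LOC_Os04g27190. LOC_Os08g07100 lay nearest to LOC_Os06g01470 (0.83), and LOC_Os04g27190 to LOC_Os04g52230 (1.62). For LOC_Os04g27790 it was LOC_Os02g17780 (1.35), and for LOC_Os04g27670 it was LOC_Os04g10060 (0.08), where both had few counts. These likenesses rest on 2 libraries.

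Summed over the 8 loci, counts were 21674 in wild-type and 13198.5 in the *wlp2s* library, 1.69-fold lower (1.65 to 1.72). That sum is nearly the value of a single locus, since LOC_Os08g04500 made up 95.7% of it in wild-type and 93.6% in the *wlp2s* library. Without it, the other 7 loci summed to 942 and 841.5 counts, 1.15-fold lower (1.05 to 1.26). The sum of these 7 hides loci that were higher and loci that were lower.

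**Figure D4:**
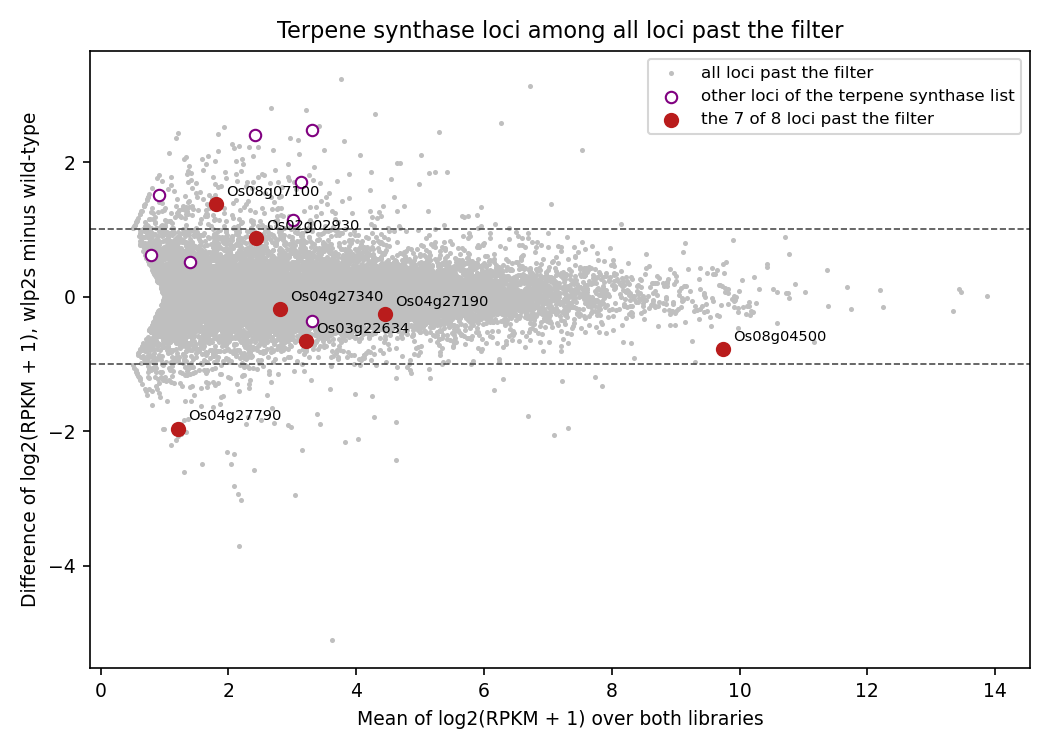
Difference of log2(RPKM + 1), *wlp2s* minus wild-type, against the mean of log2(RPKM + 1) for the 18639 loci past the filter (grey), with the 7 members past the filter in red and other terpene synthase loci as open circles; dashed lines mark the size rule. LOC_Os08g04500 lies at the highly expressed end at -0.78, LOC_Os08g07100 above the upper line at 1.38, and LOC_Os04g27790 below the lower line at -1.96.

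The summed reads of the rest of the family were higher in *wlp2s*, where those of the set were lower. By description 30 loci match the terpene synthase list, and the 22 outside the set held 2.94% of the family's counts in wild-type and 11.6% in the *wlp2s* library. Of these 22, 8 passed the filter, 5 were higher and 0 were lower by the size rule, against 1.79% and 1.01% of all loci. Of the 5, 2 lie in the chromosome 2 cluster and 1 in the chromosome 4 cluster. LOC_Os08g07080, another of the 5, may share reads with LOC_Os08g07100 of the set. Weak loci pass the filter only through the library where they are high, as LOC_Os02g36210 did (0.114 RPKM in wild-type against 2.19 RPKM in *wlp2s*). Of the loci that did not pass, 3 were lower and 1 was higher in *wlp2s* with intervals that leave out 1, and they are named here after their values were seen. LOC_Os02g36220 had 12.7 and 1 counts, 13.1-fold lower (2.01 to 568). LOC_Os02g36264 had 13.7 and 1.5 counts, 9.36-fold lower (1.65 to 65.2), and LOC_Os02g17780 had 21 and 7 counts, 3.08-fold lower (1.26 to 8.58). LOC_Os04g10060 of the chromosome 4 cluster had 1 and 11 counts, 10.7-fold higher (1.56 to 461). The summed counts of the 22 were 2.55-fold higher (2.33 to 2.80). The 5 loci of the chromosome 2 diterpenoid cluster, which include LOC_Os02g36220 and LOC_Os02g36264, summed to a level 5.46-fold higher (4.10 to 7.29), and 259 of the 328.5 counts in *wlp2s* came from LOC_Os02g36140. The 2 loci of the chromosome 4 cluster were 7.06-fold higher in sum (5.54 to 9.09). The other 15 were 1.57-fold higher in sum (1.41 to 1.76), from 523 and 846 counts. That rise came from LOC_Os08g07080 (69 and 271.5 counts) and LOC_Os11g28530 (113.6 and 287.5 counts). LOC_Os04g52230, with 271 and 210 counts, went the other way. Of the 5 loci of these 15 that passed the filter, 4 had differences above 0 and 1 below. Across the whole list, 15 loci passed the filter, 6 were higher and 1 was lower, with a median difference of 0.62 (0.02 without the filter), while the 7 members past the filter had a median of -0.26. The whole list without LOC_Os08g04500 was 1.56-fold higher in *wlp2s* (1.47 to 1.66), and with it 1.54-fold lower (1.51 to 1.57). The most expressed of the 22 by mean RPKM was LOC_Os04g09900 of the chromosome 4 diterpenoid cluster, at 3.18 RPKM in wild-type against 22.2 RPKM in *wlp2s*, followed by LOC_Os08g07080. LOC_Os04g52230 was at 10.2 and 7.70 RPKM, 0.754 of wild-type (0.627 to 0.907).

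Among genes that supply the substrates, mevalonate pathway loci were mostly close to equal in both libraries. Loci of prenyl diphosphate synthases lay on both sides of 0. By wording 12 loci match the mevalonate pathway, which feeds sesquiterpene synthesis in the cytosol. Of these, 10 passed the filter, with a median difference of -0.01. None was past the size rule, against 2.80% of all loci, so that count says little. The list includes 2 isomerase loci with the term plastid, LOC_Os05g34180 and LOC_Os07g36190. LOC_Os07g36190 held 2940 of the 4889.5 counts of the list in wild-type. The farthest with an RPKM of at least 5 were the HMG-CoA synthase loci LOC_Os08g43170 (34.7 and 27.2 RPKM) and LOC_Os09g34960 (7.37 and 9.11 RPKM). Of 9 loci of prenyl diphosphate synthases, 8 passed the filter and the median was -0.19. With 2.80% of all loci past the size rule, the 0 of these 8 loci says as little. Their differences ran from -0.69 to 0.43, with 3 above 0 and 5 below. The highest difference was at LOC_Os07g39270, annotated as geranylgeranyl pyrophosphate synthase 1. It was at 22.8 RPKM in wild-type against 31.0 RPKM in *wlp2s*, 1.36-fold higher (1.18 to 1.57). The farnesyl diphosphate synthase locus LOC_Os01g50050 was at 57.7 RPKM in wild-type against 35.3 RPKM in *wlp2s*, 1.63-fold lower (1.46 to 1.83), a fold close to that of LOC_Os08g04500. The 4 farnesyl diphosphate synthase loci together were 1.18-fold lower (1.14 to 1.22). LOC_Os08g09370, annotated as geranyl diphosphate synthase 1, had 89 and 51 counts and was 1.79-fold lower (1.26 to 2.58). Both squalene synthase loci, which draw on farnesyl diphosphate for sterols, had differences of -0.50 and -0.18.

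The plastid (MEP) pathway, which feeds monoterpene synthesis, had 9 loci, all past the filter, with a median of -0.11. By the size rule 1 was higher and 1 lower, against 1.79% and 1.01% of all loci. Both of these are annotated as deoxyxylulose phosphate synthase, the enzyme of the first step. LOC_Os05g33840 was at 25.0 RPKM in wild-type against 8.56 RPKM in *wlp2s*, 2.92-fold lower (2.50 to 3.43). LOC_Os07g09190, which was singled out after its values were seen, was at 0.690 and 3.30 RPKM, 4.79-fold higher (2.84 to 8.40). The 3 loci of this enzyme together were 1.25-fold lower (1.16 to 1.36). The reductoisomerase locus LOC_Os01g01710 of the next step was at 252 and 184 RPKM, 1.37-fold lower (1.31 to 1.44).

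Loci of the JAZ repressor and jasmonate synthesis lists lay on both sides of 0. Of 11 loci annotated as JAZ or TIFY proteins, repressors of jasmonate signalling, 10 passed the filter with a median of -0.42. Differences were above 0 at 2 and below 0 at 8 (9271 of all 18639 loci were below 0). By the size rule 0 were higher and 1 was lower, against 1.79% and 1.01% of all loci. The farthest with an RPKM of at least 5, LOC_Os10g25290, was at 22.6 RPKM in wild-type against 10.7 RPKM in *wlp2s*, and LOC_Os03g08330 was at 17.2 and 8.56 RPKM. The jasmonate synthesis list holds 32 loci annotated as lipoxygenases, allene oxide enzymes, oxophytodienoate reductases or a later CoA ligase. It joins enzyme types by wording, so a locus in it need not act in jasmonate synthesis. Of the 32, 24 passed the filter with a median of 0.03. On the size rule 2 were higher and 1 was lower, against 1.79% and 1.01% of all loci. The farthest of these, LOC_Os02g10120, annotated as lipoxygenase 2, was at 56.0 and 9.64 RPKM. LOC_Os08g39850, with the same annotation, was at 12.3 RPKM in wild-type against 30.8 RPKM in *wlp2s*, 2.52-fold higher (2.20 to 2.89). LOC_Os08g39840, the other locus on the higher side and also annotated as lipoxygenase 2, was at 8.90 and 22.4 RPKM, and the fractional counts of both mean that reads were in part divided with other loci.

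**Figure D5:**
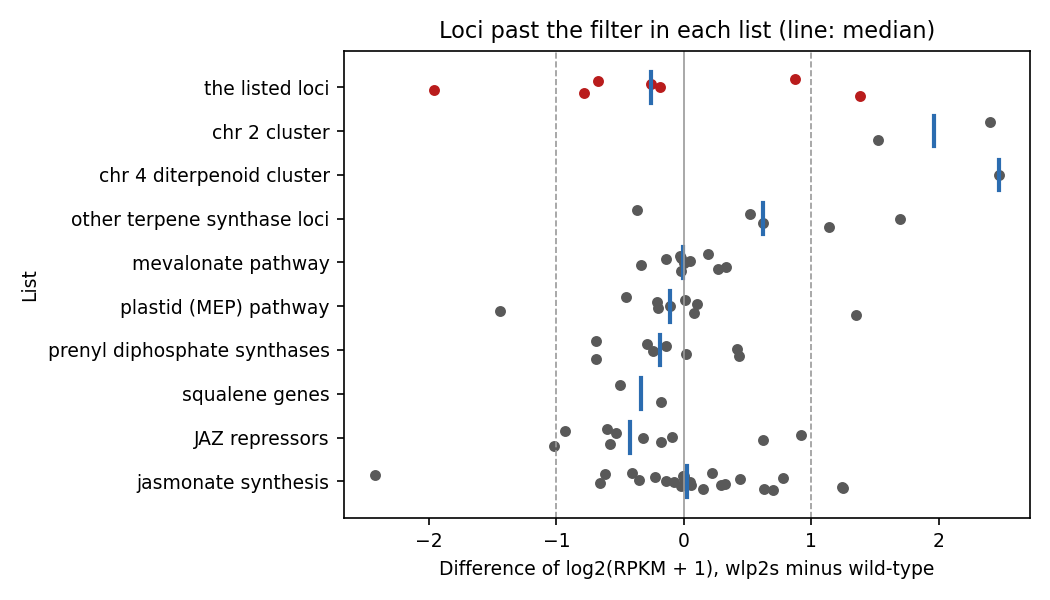
Difference of log2(RPKM + 1), *wlp2s* minus wild-type, of each locus past the filter in the terpene synthase sets and in the lists of substrate and jasmonate genes (points), with the median of each list (blue line) and the size rule (dashed). The 7 members past the filter (red) span -1.96 to 1.38, and the mevalonate pathway -0.34 to 0.33.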

How the data were processed

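Leaf RNA from 1 wild-type and 1 mutant sample was sequenced with single-end reads. TopHat, Cufflinks and Cuffdiff are the tools in the submitters' processing notes. The counting tool, genome build and annotation release are not given in the sources used here. The authors deposited estimated counts per transcript model, not normalized, in which reads that fit several models were divided, so some are fractions. The authors deposited RPKM values beside them. A count divided by its RPKM gave a whole number of bases as model length for 100% of models (tolerance 0.001), with the column total as depth. A second table holds the authors' fold changes and P-values and repeats the values in 4 columns under headers that name wlp1 and ZH11, and was not used.

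Models of a locus were summed. Levels were compared by log2(RPKM + 1) wherever a locus reached 1 RPKM in either library, with no test. Fractional counts were rounded for the exact intervals, and the floor was 3 counts. The reads carry no molecular identifiers. The members and lists were chosen with earlier results of these data known. Lists were drawn from the wording of the deposited descriptions. For JAZ proteins, 3 loci that matched only through the word rectifying were left out, which departs from the wording as first set. Named genes are the 8 members, the 3 other terpene synthase loci with the highest mean RPKM and any that may share reads with a member, the nearest locus of each member, *WLP2*, and up to 2 loci per list with an RPKM of at least 5 and the largest difference. Further loci were named outside this rule. None of the 8 IDs was found in the RefSeq gene table (0 matches), and no sequence was used. The computation ran in Python 3.11.15 (pandas 2.3.3, scipy 1.17.1, numpy 2.4.6), and the procedure was tested on simulated data. The simulation changed only loci with a mean RPKM of at least 5 and drew whole counts with Poisson error alone. It therefore does not cover the members past the size rule, whose levels were lower, nor divided reads or differences between plants.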

Additional observations from a re-analysis of the deposited data

How the results depend on the processing

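With 1 library per genotype no replicate could be left out, and no paired analysis was possible because the genotypes share a single replicate number. Pseudocounts and filters cannot turn the sign of a locus, nor can a scaling turn a locus at 0 in wild-type. For the 7 members with counts in both libraries, the sign stayed under both other scalings, the largest model and the adding up of loci that may share reads. The difference of LOC_Os08g04500 ran from -0.79 to -0.77 and that of LOC_Os04g27790 from -3.77 to -0.73. The number of members past the size rule depended on the settings. On the higher side it was 2 with a pseudocount of 0.1 or a size rule of log2 of 1.5, and 0 with a pseudocount of 5, an RPKM of at least 5 or whole counts. On the lower side it was 0 with a pseudocount of 5 or an RPKM of at least 5, and 3 with a size rule of log2 of 1.5. An RPKM of at least 5 left out LOC_Os08g07100 and LOC_Os04g27790, and whole counts left out LOC_Os08g07100. The counts of 0 under these filters were thus set by the filters. Of the same 18639 loci, 779 were higher and 497 lower with a pseudocount of 0.1, and 81 and 39 with 5. With a size rule of log2 of 1.5 they numbered 1222 and 783. An RPKM of at least 5 gave 187 and 82, and whole counts gave 171 and 128. These last 2 settings examine fewer loci, so their counts do not compare as shares of the 18639. The median of the terpene synthase list was 1.05 with a pseudocount of 0.1, 0.21 with 5, 0.02 without a filter, 0.08 with whole counts, 0.25 with CPM and 0.34 at a minimum of 5 RPKM. Its higher loci numbered 3 with a pseudocount of 5 and 2 with whole counts, and its lower loci 0 with a pseudocount of 5 or an RPKM of at least 5 and 3 with CPM, which ignore length. The log2 ratio of the members' summed RPKM was -0.75, -0.79 with whole counts and -0.17 without LOC_Os08g04500. The pseudocount of 1 and the depth limit what can be seen below about 1 RPKM, and alternatives of read sharing, the GO list and the left-out member were added after the data were seen.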
